A study of Arabidopsis thaliana with 28 samples.

Results

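The line labelled PYR1 CA was compared with the abscisic acid (ABA) deficient mutant aba2-1, both after mock treatment. The comparison used 3 PYR1 CA libraries and 3 aba2-1 mock libraries, taken by their labels from 28 RNA sequencing libraries of whole Arabidopsis thaliana seedlings in 10 groups. CA is the usual short form for a constitutively active receptor, which signals without the hormone. Further references were 9 mock libraries of the lines PYL4 CA, PYL5 CA and PYL6 CA, 3 libraries of aba2-1 given 50 nM ABA and 2 of wild-type Col-0 in mock. Values were also read in 3 libraries of aba2-1 given 10 nM ABA, 3 of Col-0 given 50 nM ABA and 2 of Col-0 given 10 nM ABA. The labels give every sample the line T3 and an age of 10 days after germination, while the growth protocol gives 7 days on plates, followed by 3 h in liquid medium with mock or ABA. The promoter of the CA transgenes, their number of insertions and the genetic background of the lines are not given in the sources used here. Whether replicates were grown apart is not given either, and p-values therefore cover only the spread among these libraries, which may be technical.

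ABA is a plant hormone of drought, salt and seed maturation. PYR1 and its PYL relatives are soluble receptors that, once they hold ABA, bind and inhibit clade A protein phosphatases 2C (PP2Cs), which releases SnRK2 kinases to activate bZIP transcription factors of the ABF and ABI5 type. Those factors bind ABA-responsive elements with an ACGTG core and switch on genes for LEA proteins, dehydrins and ABA breakdown. ABA2 makes the dehydrogenase of a late step in ABA synthesis, so aba2-1 plants hold little ABA.

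The PYR1 CA libraries held 22770032 to 30911099 reads and the aba2-1 mock libraries 16616078 to 17312315, within 11988942 to 30911099 over all 28 libraries. Ribosomal RNA (rRNA) made up 4.27% to 6.62% of reads in PYR1 CA and 1.59% to 6.34% in aba2-1 mock. In aba2-1 10 nM ABA replicate 3 it made up 36.6%, the highest of all 28 libraries. In that library 41.2% of reads were from organelle genes and 77.3% fell in the top 10 genes. Values are normalised reads, that is reads divided by 1 size factor per library, and do not account for gene length. Replicates of PYR1 CA were close to each other, with a median log2 SD per gene of 0.0967, beside 0.126 for aba2-1 mock. The widest groups were PYL5 CA, at 0.275, and aba2-1 with 50 nM ABA, at 0.297, and the fit gave all 10 groups 1 shared estimate of the spread per gene. Markers of the tissues of a seedling were present: 26 photosynthesis genes, 20 root genes and 21 guard cell and stomatal genes passed the filter on low values.

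The targeted gene was read first. PYR1 (AT4G17870, chromosome 4, 9928587 to 9929875 in TAIR10.1) held 631, 386 and 696 normalised reads in the 3 PYR1 CA libraries, against 1602, 1402 and 1584 in aba2-1 mock. All PYR1 CA libraries lay below all aba2-1 mock libraries, with a log2 difference of -1.46, SE 0.27, adjusted p = 0.011, where a log2 difference is PYR1 CA minus the reference on log2(normalised reads + 1) and the adjusted p is limma's over all genes. The deposited table has a separate row, PYR1-CA, which held 555, 324 and 473 in PYR1 CA and 731, 1202 and 1094 in aba2-1 mock. This row has no locus and was kept out of the fit. How reads were divided between the locus and its CA row was not tested, so the sum was also read: it was 1186, 710.1 and 1169 in PYR1 CA, a mean of 1022 ± 270 (SD, n = 3), and 2332, 2604 and 2677 in aba2-1 mock, a mean of 2538 ± 182 (SD, n = 3). The sum was 2.55-fold lower in PYR1 CA with no overlap of the libraries (exact permutation test on log2 sums, two-sided p = 0.1, the smallest that 3 against 3 allows). PYR1 reads thus go against the label of this line, and PYR1 CA below means the libraries so labelled. The call for the PYR1 locus was lost without PYR1 CA replicate 2 and without aba2-1 mock replicate 2 (highest adjusted p = 0.12).

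Against other groups the PYR1 locus was low as well. It held 2414 and 2748 in Col-0 mock (log2 difference -2.22) and 429, 647 and 467 in aba2-1 given 50 nM ABA, where the difference from PYR1 CA was 0.13. In the other CA lines it ranged between 793 and 2671 normalised reads. At this locus the PYR1 CA libraries overlapped those of aba2-1 with 50 nM ABA and lay below every library of Col-0, of aba2-1 mock and of the other CA lines. The sum with the row PYR1-CA did not overlap: it was 1460.4, 1416.5 and 1347.4 in aba2-1 with 50 nM ABA, above every PYR1 CA library.

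A second row without a locus, named MCCA-NOS in the table, set the CA lines apart from the others. It held 16512, 12572 and 18766 in PYR1 CA, a mean of 15950 ± 3135 (SD, n = 3), and was listed at 0 in each aba2-1 mock library, at least 4406-fold higher by a floor of 3 reads per library. It averaged 12317 ± 3280 in PYL4 CA, 13712 ± 5322 in PYL5 CA and 22098 ± 4138 in PYL6 CA (SD, n = 3 each). It was at most 140 normalised reads in any aba2-1 library and listed at 0 in Col-0. By this row the PYR1 CA libraries lay with those of the other CA lines. What the row stands for is not given in the sources used here.

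The rows named after a receptor were high in the line of the same name, with PYR1 CA as the exception. PYL4-CA averaged 6196 ± 1650.2 in PYL4 CA, PYL5-CA 10134 ± 1998 in PYL5 CA and PYL6-CA 5450 ± 537 in PYL6 CA (SD, n = 3 each). The same rows averaged 5.68, 12.6 and 8.25 in PYR1 CA and 9.08, 575 and 444 in aba2-1 mock. PYR1-CA was highest in PYL5 CA, with 1157, 1926 and 2105, above every PYR1 CA library. It averaged 45.2 in PYL4 CA and 94.5 in PYL6 CA. In wild-type Col-0 it averaged 591 in mock, 1104.5 with 10 nM ABA and 725 with 50 nM ABA, so this row does not measure a transgene alone.

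**Figure D1:**
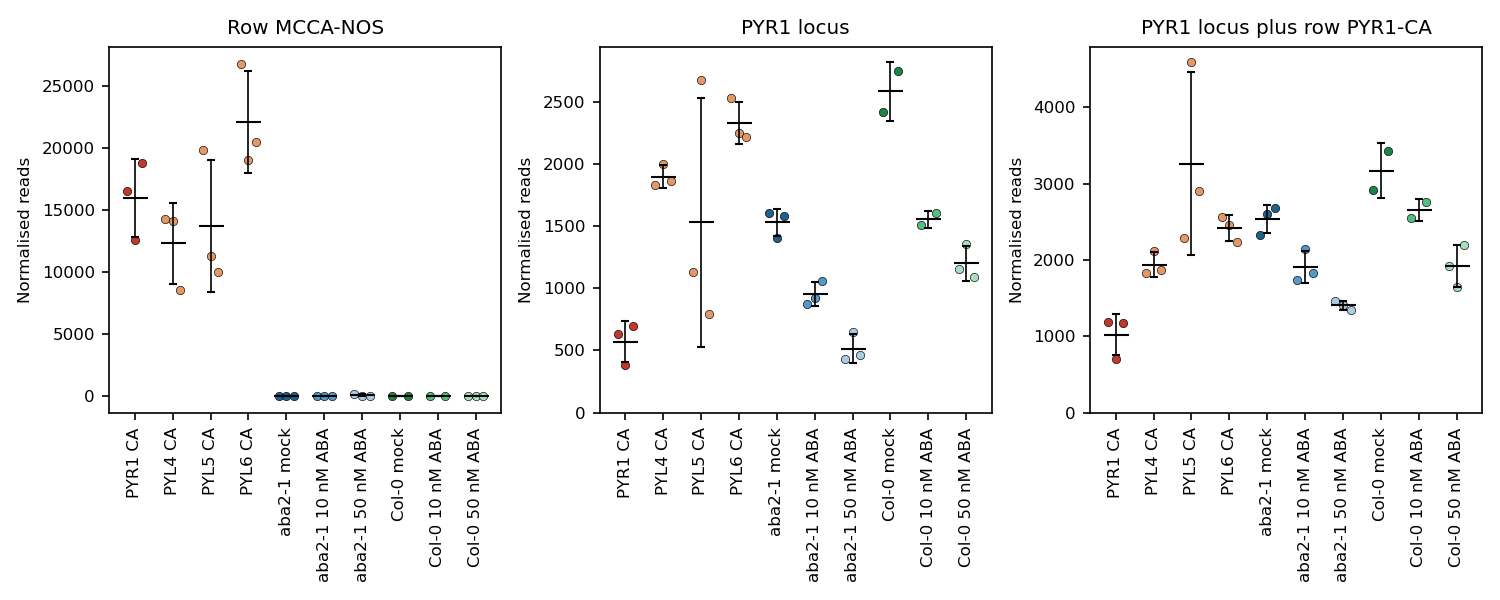
Normalised reads (y axis, linear, starting near 0) of the row MCCA-NOS, the PYR1 locus and the sum of the PYR1 locus with the row PYR1-CA in the 10 groups (x axis). Points are libraries, horizontal bars are means and whiskers are the SD. MCCA-NOS is between 12572 and 18766 in PYR1 CA and at 0 in aba2-1 mock, while both PYR1 panels have PYR1 CA below aba2-1 mock.

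The remaining receptors of the family did not pass the test. Of the 9 PYR/PYL receptor genes that entered the fit, 0 were called higher and 1 lower, PYR1 itself, which was also the 1 member with an unadjusted p under 0.05, and edgeR and DESeq2 called the same numbers. Over all genes tested, 1.04% were called higher and 0.114% lower by limma, 1.08% and 0.133% by edgeR and 2.68% and 0.452% by DESeq2. By unadjusted p under 0.05 in limma, 8.21% of all genes were higher and 3.52% lower, and counts of list members by these rules are to be read against these shares. PYL4 held 4573 ± 446 in PYR1 CA and 4188 ± 58.7 in aba2-1 mock (SD, n = 3 each), a log2 difference of 0.12 with a 95% interval from -0.15 to 0.40. The intervals reached from -0.37 to 0.38 for PYL5 and from -0.41 to 0.83 for PYL6. ABA2 held 205, 192 and 182 in PYR1 CA and 208, 186 and 205 in aba2-1 mock, and this level is no check of the aba2-1 mutation.

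In 4 chosen genes that differ between aba2-1 and Col-0, PYR1 CA lay with aba2-1 mock. MRD1 held 836, 822 and 896 normalised reads in PYR1 CA, 859, 829 and 796 in aba2-1 mock and 11.6 and 21.7 in Col-0 mock. HEI10, known for its role in meiotic crossover, held 407, 344 and 321 in PYR1 CA, 303, 393 and 408 in aba2-1 mock and 30.0 and 47.1 in Col-0 mock. Both were called against Col-0 mock (log2 differences 5.65 and 3.21) and neither against aba2-1 mock (0.039 and -0.039), although MRD1 lost its call without either Col-0 mock library (highest adjusted p = 0.11). In the other direction AT3G55920 held 0, 0 and 0.609 in PYR1 CA and 1.04, 1.21 and 1.13 in aba2-1 mock, against 177 and 196 in Col-0 mock. AT4G08093 was likewise below 1.1 normalised reads in each PYR1 CA and aba2-1 mock library and held 55.1 and 53.8 in Col-0 mock. All 4 were also called between aba2-1 mock and Col-0 mock, where 124 genes (0.590% of all genes) were called. Where PYR1 CA lay over all of those genes was not counted, and UMAMIT17, described further on, lay at the Col-0 mock level. MRD1 and HEI10 were chosen because earlier results of these data marked aba2-1 by them. AT3G55920 and AT4G08093 were picked as large falls of PYR1 CA against Col-0 mock, so their distance from Col-0 mock is no support. MRD1 (AT1G53480, 19963047 to 19964712) and HEI10 (AT1G53490, 19963267 to 19966952) overlap on chromosome 1, which also holds ABA2 (AT1G52340), and reads in the overlap may count for either gene. What these levels owe to the background of the line was not tested.

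Genes around PYR1 on chromosome 4 were read as well, and 1 of them differed. AT4G17860 (9924522 to 9926392), next to PYR1 in the table and chosen after its values were seen, held 22.0, 32.7 and 32.9 in PYR1 CA and 4.15, 1.21 and 4.54 in aba2-1 mock (log2 difference of 2.901, SE 0.55, adjusted p = 0.012). It was at or below 3.78 normalised reads in every library of the other CA lines, and its call against aba2-1 mock was lost without aba2-1 mock replicate 2 and without PYR1 CA replicate 2 (highest adjusted p = 0.11). The other 10 tested genes of this stretch were not called, with adjusted p between 0.33 and 0.98.

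Few genes separated PYR1 CA from aba2-1 mock, and most of those were higher in PYR1 CA. Of 21023 genes tested, 242 (1.15%) were called at an adjusted p under 0.05: 218 (1.04%) were higher in PYR1 CA and 24 (0.114%) lower. Among them 117 rose and 8 fell by at least 2-fold, and 2465 genes had an unadjusted p under 0.05. The 218 higher genes had a median log2 difference of 1.06 and the 24 lower genes of -0.87, beside -0.0018 over all genes tested. The same count was 591 (2.81%) against Col-0 mock, 5897 (28.1%) against aba2-1 50 nM ABA and 38 (0.181%) against the mean of the other CA lines.

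A pair of libraries weighed on these calls. PYR1 CA replicate 2 was the highest of its group in 171 of the 218 higher genes (78.4%), beside 41.2% of all genes tested, and aba2-1 mock replicate 2 was the lowest of its group in 140 (64.2%), beside 30.5%. Without PYR1 CA replicate 2 the count was 27, and without aba2-1 mock replicate 2 it was 18, while leaving out PYR1 CA replicate 1 gave 87 and aba2-1 mock replicate 1 gave 109. Leaving out the remaining library of each group gave 262 and 287. The count also moved with the test and with the samples that set the spread: it was 657 with DESeq2 and 106 (67 higher and 39 lower) with only the 6 libraries compared. It was 1302 (914 higher and 388 lower) without aba2-1 50 nM ABA and PYL5 CA, and 1473 (73.4% of them higher) with a spread weighted by group. Of the 242 calls, 225 were also made by both edgeR and DESeq2. Calls made in the fit and also after leaving out any one of the 6 libraries numbered 12, of which 11 were higher in PYR1 CA. They were SQP2, CYP707A1, NADP-ME1, AT5G52050, LEA4-5, GLR2.5, AT5G24080, AT4G17660, AT1G49450, PR2 and RAB18, and the lower gene AT1G53640. PR2 passed the filter on low values only through PYR1 CA, so its calls are no support for a rise. Of the 59 called genes named here, 13 stayed called without aba2-1 mock replicate 2 and 21 without PYR1 CA replicate 2, so that every named call outside those 12 was lost, or its gene fell below the filter, without at least 1 library.

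**Figure D2:**
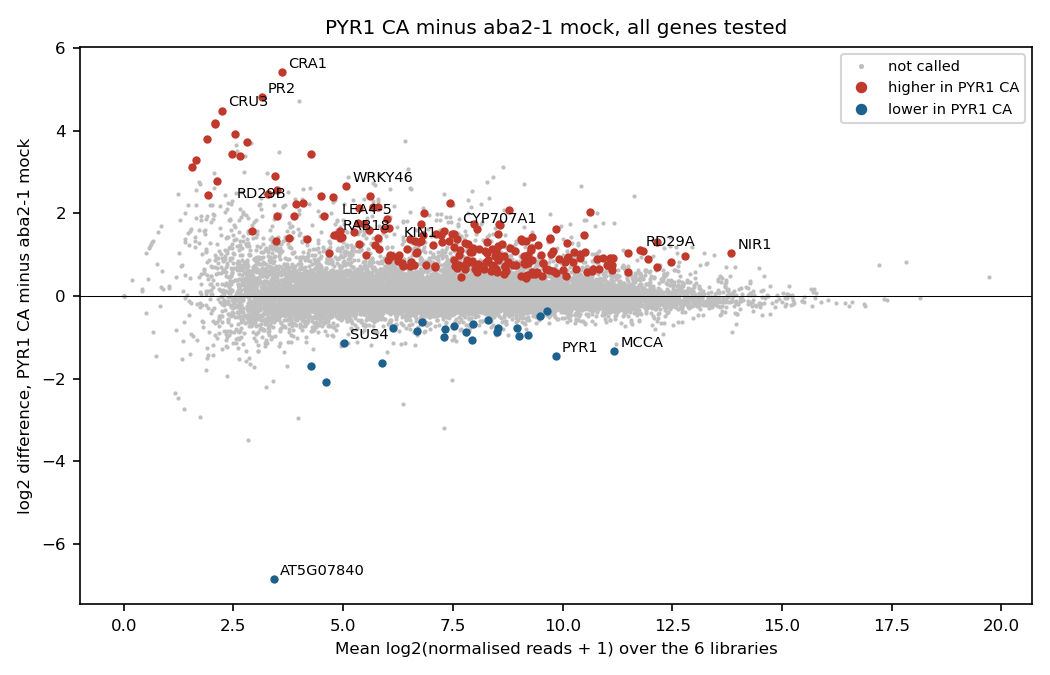
Log2 difference of PYR1 CA minus aba2-1 mock (y axis) against the mean log2(normalised reads + 1) over the 6 libraries (x axis), 1 point per gene tested. Red points are the 218 genes called higher in PYR1 CA, blue points the 24 called lower and grey points the genes not called.

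ABA-induced marker genes were the first group read. Of 35 tested, 6 were called higher and 0 lower, with a median log2 difference of 0.60, beside -0.0018 for all genes, and 32 of the 35 had a positive difference. The share called higher, 6 of 35, stands beside 1.04% of all genes. Higher calls were 7 by edgeR and 8 by DESeq2, beside 1.08% and 2.68% of all genes, and lower calls 0 by both. By unadjusted p under 0.05, 18 members were higher and 1 lower, beside 8.21% and 3.52% of all genes. Because the RNA came from whole seedlings, fewer cells of a type and less RNA per cell cannot be told apart in this or any later result.

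The promoters of LEA4-5 and RD29B and of the ABA breakdown gene CYP707A1 are shown because all 3 genes rose and their windows hold the ACGTG core that ABF and ABI5 factors bind. Each window is the 250 bases before the RefSeq gene start in TAIR10.1, on the strand of the gene, with the core or its complement CACGT in capitals.
LEA4-5 (chr5:2090431-2090680, minus strand): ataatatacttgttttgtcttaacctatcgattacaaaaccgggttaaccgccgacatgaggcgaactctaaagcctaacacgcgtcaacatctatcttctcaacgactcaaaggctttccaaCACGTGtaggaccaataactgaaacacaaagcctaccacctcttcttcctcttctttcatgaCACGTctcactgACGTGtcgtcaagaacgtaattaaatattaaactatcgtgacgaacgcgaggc
RD29B (chr5:21236771-21237020, plus strand): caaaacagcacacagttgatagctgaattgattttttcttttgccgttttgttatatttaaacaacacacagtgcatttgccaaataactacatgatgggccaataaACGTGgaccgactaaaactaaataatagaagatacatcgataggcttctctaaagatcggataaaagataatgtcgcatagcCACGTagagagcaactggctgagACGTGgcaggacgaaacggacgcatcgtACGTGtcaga
CYP707A1 (chr4:10521009-10521258, plus strand): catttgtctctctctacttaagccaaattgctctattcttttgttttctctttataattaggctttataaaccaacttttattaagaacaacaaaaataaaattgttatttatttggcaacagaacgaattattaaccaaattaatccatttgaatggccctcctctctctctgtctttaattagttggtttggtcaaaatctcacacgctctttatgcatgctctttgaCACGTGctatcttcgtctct
Counting both strands, so that a palindromic CACGTG counts as 2 overlapping matches, the windows held 4, 4 and 2 matches. Among all tested genes with a window, 24.0% of 20544 held the core at least once, beside 26.2% of 214 genes called higher. In the ABA-induced list 19 of 35 windows held it (54.3%), among them 4 of the 6 members called. A match is only a run of letters, and nothing about binding was measured.

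LEA4-5 (AT5G06760), a late embryogenesis abundant protein that protects cells on drying, held 75.8, 40.7 and 75.5 normalised reads in PYR1 CA and 6.23, 18.1 and 11.3 in aba2-1 mock. The groups did not overlap and the gene rose (log2 difference of 2.39, SE 0.36, adjusted p = 0.0024). In aba2-1 given 50 nM ABA it held 401, 448 and 544, above every PYR1 CA library. RAB18, a dehydrin used as a standard reporter of ABA responses, rose as well: it held 50.0, 38.0 and 54.2 in PYR1 CA and 13.5, 18.1 and 17.02 in aba2-1 mock (log2 difference of 1.49, SE 0.25, adjusted p = 0.0073). With 50 nM ABA it held 987, 1505 and 872 in aba2-1, so that PYR1 CA lay far below the hormone-treated mutant, with a log2 difference of -4.51. Both calls remained after leaving out any of the 6 libraries.

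RD29B, a desiccation-responsive gene with strong dependence on ABA, held 33.4, 15.0 and 93.1 in PYR1 CA and 9.34, 7.24 and 4.54 in aba2-1 mock (log2 difference of 2.26, SE 0.42, adjusted p = 0.010), with PYR1 CA replicate 3 the highest. The summed seed markers described further on were also highest in that library (187, 126 and 854 normalised reads in PYR1 CA, 58.1, 33.8 and 43.1 in aba2-1 mock), and their part in the ABA marker values was not tested. The RD29B call was lost without aba2-1 mock replicate 2 (adjusted p = 0.059). The neighbouring gene RD29A, which also answers to cold and drought without ABA, held 6274, 4706 and 4442 in PYR1 CA and 2909.5, 2440.2 and 1854 in aba2-1 mock (log2 difference of 1.11, SE 0.24, adjusted p = 0.025). ERD10, a dehydrin, rose less (log2 difference of 0.71, SE 0.15, adjusted p = 0.022), with means of 5832 ± 291 in PYR1 CA and 3569 ± 363 in aba2-1 mock (SD, n = 3 each). The RD29A and ERD10 calls were each lost in 4 of the 6 fits that left out a library, without aba2-1 mock replicate 2 and PYR1 CA replicates 1 and 2 in both, without aba2-1 mock replicate 3 for RD29A and replicate 1 for ERD10, with a highest adjusted p of 0.12 and 0.11. RD29A, RD29B and ERD10 were named after their values were seen.

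KIN1, a cold- and ABA-inducible gene, lay between both mock references. It held 345, 205 and 274 in PYR1 CA and 103, 103 and 116 in aba2-1 mock (log2 difference of 1.32, SE 0.24, adjusted p = 0.0088), but 497 and 654 in Col-0 mock, where PYR1 CA was lower (log2 -1.08, adjusted p = 0.028, lost without either Col-0 mock library or PYR1 CA replicate 2 or 3). The call against aba2-1 mock was lost without aba2-1 mock replicate 2 and without PYR1 CA replicate 1, with a highest adjusted p of 0.062. KIN2, its close tandem copy and thus uncertain where reads fit both, held 2304, 1694 and 2078 in PYR1 CA and 1202, 1080.1 and 808 in aba2-1 mock and was not called by limma (log2 difference of 0.98, SE 0.27, adjusted p = 0.07) or edgeR (adjusted p = 0.067), but by DESeq2 (adjusted p = 0.016). LEA7 (log2 2.45, adjusted p = 0.086) and COR15A (log2 1.48, adjusted p = 0.40) were higher on average without passing the test in limma, while LEA7 was called higher by edgeR (adjusted p = 0.046) and DESeq2 (adjusted p = 0.0079). The transcription factor genes RD26 and ATHB7, named with COR15A and KIN2 after their values were seen and both called higher in aba2-1 with 50 nM ABA than in aba2-1 mock, were not called in PYR1 CA, with 95% intervals of the log2 difference from -0.86 to -0.14 and from -0.18 to 0.58. The whole interval of RD26 was negative, opposite to its rise with 50 nM ABA.

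Set against aba2-1 with 50 nM ABA, the same list lay below. Of 35 members, 31 were called lower in PYR1 CA and 1 higher, beside 13.7% of all genes called lower and 14.3% higher. The median log2 difference was -1.65, beside 0.011 over all genes. The 5 largest falls there were AT5G28520, AT2G37870, LEA7, BGLU24 and RAB18, with log2 differences between -6.26 and -4.51. AT5G28520 held 0.758, 1.77 and 0 in PYR1 CA and 137, 83.4 and 186 in aba2-1 50 nM ABA. For the hormone itself, 33 of 35 members rose in aba2-1 with 50 nM ABA against aba2-1 mock, with a median of 2.39 (12.7% of all genes called higher), and 10 of 35 rose with 10 nM, with a median of 0.73 (0.504% of all genes). Those comparisons share the aba2-1 mock libraries with that of PYR1 CA, whose median was 0.60. The 10 nM group includes replicate 3, in which 36.6% of reads were rRNA, and its part in the 10 nM values was not tested. Against Col-0 mock 6 members were called higher in PYR1 CA and 2 lower (2.11% and 0.704% of all genes), with a median of 0.27. Against the mean of the other CA lines 0 of 35 were called by limma, edgeR or DESeq2, beside 0.109% of all genes called higher and 0.0714% lower by limma, 0.314% and 0.0809% by edgeR and 0.738% and 0.229% by DESeq2. The median there was 0.10, and by unadjusted p under 0.05 4 members were higher and 2 lower, beside 5.34% and 2.68% of all genes.

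**Figure D3:**
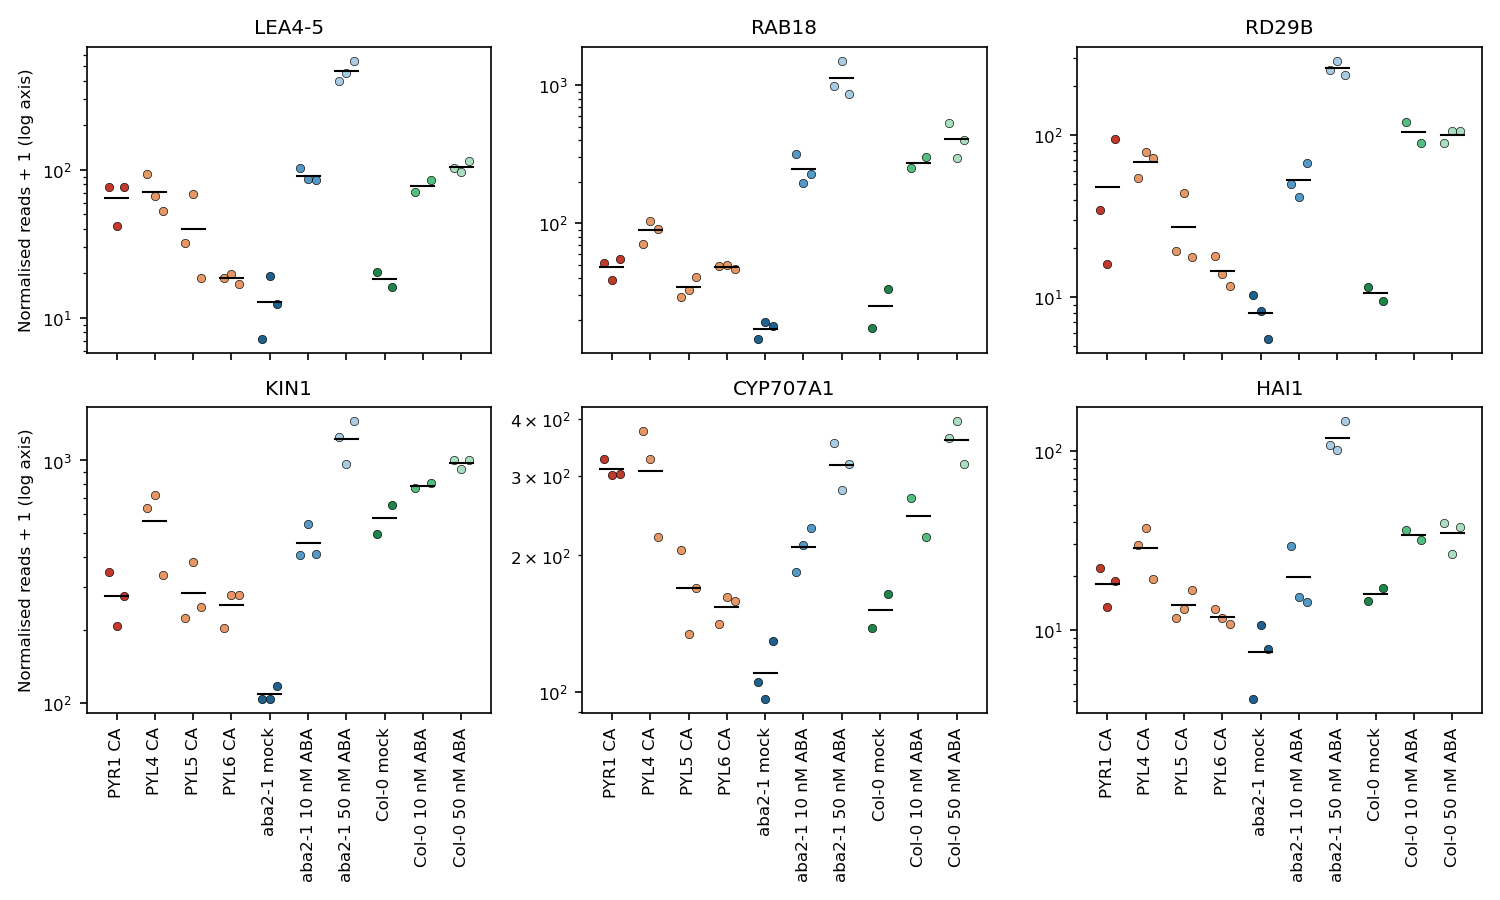
Normalised reads + 1 (y axis, log) of LEA4-5, RAB18, RD29B, KIN1, CYP707A1 and HAI1 in the 10 groups (x axis), with 1 point per library and a bar at the group mean. In LEA4-5, RAB18, RD29B and CYP707A1 all PYR1 CA points lie above all aba2-1 mock points, and in RAB18 they lie far below those of aba2-1 50 nM ABA.

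Genes of ABA turnover were tested next. CYP707A1, an ABA 8'-hydroxylase that breaks the hormone down, held 326, 299.8 and 302 in PYR1 CA and 104, 95.3 and 128 in aba2-1 mock (log2 difference of 1.505, SE 0.18, adjusted p = 0.00013). The groups did not overlap, and the call held after leaving out any of the 6 libraries. In aba2-1 with 50 nM ABA it held 353, 278 and 318, around the PYR1 CA libraries, with a log2 difference of -0.026 that was not called. Its paralogue CYP707A3 was higher on average without passing the test in limma (log2 difference of 0.68, SE 0.18, adjusted p = 0.062), as was the ABA importer gene ABCG40 (log2 difference of 1.33, SE 0.43, adjusted p = 0.14). DESeq2 called both higher (adjusted p = 0.015 and 0.023), and edgeR called neither (adjusted p = 0.052 and 0.11). Of the 10 genes of ABA breakdown, conjugation and transport, limma and edgeR called 1 higher and DESeq2 3, beside 1.04%, 1.08% and 2.68% of all genes. All 10 had a positive difference, with a median of 0.41. NCED3, whose enzyme cleaves carotenoids in the step that limits ABA synthesis under drought, held 82.6, 86.7 and 72.4 in PYR1 CA and 22.8, 39.8 and 40.8 in aba2-1 mock (log2 difference of 1.24, SE 0.27, adjusted p = 0.024). It was the 1 called member of 6 tested in the ABA biosynthesis list, whose median was 0.056, and its call was lost in 4 of 6 fits that left out a library (without replicate 1 or 2 of either group, highest adjusted p = 0.16).

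Few genes of the signalling core passed the test. Of 7 tested clade A PP2C genes, 1 was called: HAI1 held 21.2, 12.4 and 17.7 in PYR1 CA and 3.11, 9.65 and 6.81 in aba2-1 mock (log2 difference of 1.34, SE 0.33, adjusted p = 0.048), and the call was lost in each of the 6 fits that left out a library, with a highest adjusted p of 0.19. It was not called by edgeR (adjusted p = 0.065) or DESeq2 (adjusted p = 0.053). Limma called 1.04% of all genes higher, and the median of the PP2C list was -0.0060. For ABI1 the 95% interval of the log2 difference ran from -0.19 to 0.18, for HAB1 from -0.35 to 0.21 and for PP2CA from -0.068 to 0.60. All 7 were called lower in PYR1 CA than in aba2-1 50 nM ABA, beside 13.7% of all genes, with a median of -1.32. Of 15 SnRK2 kinase and ABA transcription factor genes 0 were called by limma, edgeR or DESeq2, 1 was higher and 1 lower by unadjusted p under 0.05, and the median was 0.087. ABI5, a bZIP factor, held 73.5, 70.7 and 74.9 in PYR1 CA and 43.6, 70.0 and 54.5 in aba2-1 mock (log2 difference of 0.40, SE 0.19, adjusted p = 0.41), and OST1, the kinase that acts in stomatal closure, averaged 274 ± 33.5 in PYR1 CA and 237 ± 16.2 in aba2-1 mock (SD, n = 3 each).

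Wild type given 50 nM ABA shares no library with the comparison of PYR1 CA and aba2-1 mock. Of 166 genes called higher in Col-0 50 nM ABA than in Col-0 mock (0.790% of all genes), 23 were also called higher in PYR1 CA, which is 13.9% of that list and 10.6% of the 218 genes, and 0 were called lower. The 213 genes called either way made up 1.01% of all genes, and the 47 called lower 0.224%. The 166 genes had a median log2 difference of 0.50 in PYR1 CA minus aba2-1 mock, and 143 were positive, beside 49.6% of all genes. Among the 23 were RAB18, RD29B, LEA4-5, CYP707A1, SQP2 and AT5G24080. Of 47 genes called lower in Col-0, 1 was called lower here, AT5G54040, and 1 was called higher, with a median of -0.051.

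The genes called after any library was left out included several outside the lists, named after their values were seen apart from AT1G49450. SQP2, a squalene epoxidase-like gene, held 268, 323 and 306 in PYR1 CA and 89.3, 109 and 117 in aba2-1 mock (log2 difference of 1.51, SE 0.17, adjusted p = 8.1e-05). NADP-ME1, a cytosolic NADP-malic enzyme, held 31.8, 15.9 and 34.7 in PYR1 CA and 4.15, 4.83 and 2.27 in aba2-1 mock (log2 difference of 2.55, SE 0.34, adjusted p = 0.001). AT5G52050 held 773, 882 and 708 in PYR1 CA and 436, 387 and 373 in aba2-1 mock (log2 difference of 0.98, SE 0.14, adjusted p = 0.0017). These 3 genes were also called higher in aba2-1 50 nM ABA than in aba2-1 mock, a comparison with the same aba2-1 mock libraries, with log2 differences of 1.34, 3.65 and 0.47. Large differences are ranked below over those called genes whose higher group averaged 50 normalised reads or more and whose groups did not overlap. AT1G49450, by this naming rule among the 12 largest rises, held 113, 97.3 and 113 in PYR1 CA and 16.6, 19.3 and 39.7 in aba2-1 mock (log2 difference of 2.15, SE 0.35, adjusted p = 0.0048). GLR2.5, of the glutamate receptor-like channel family, averaged 89.9 ± 18.0 in PYR1 CA and 34.0 ± 9.18 in aba2-1 mock (SD, n = 3 each) and AT4G17660 averaged 24.2 ± 15.9 and 0.756 ± 1.31. AT5G24080 was at 0 in each aba2-1 mock library and held 4.55, 6.19 and 15.8 in PYR1 CA, at least 2.45-fold higher by a floor of 3 reads per library and at least 1.48-fold without PYR1 CA replicate 3.

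The largest rise of all called genes was that of a seed gene. CRA1 (AT5G44120), a cruciferin storage protein of the seed, held 59.9, 16.8 and 463 in PYR1 CA and 2.08, 0 and 1.13 in aba2-1 mock. It had 859 reads over the 3 PYR1 CA libraries and 3 over the 3 aba2-1 mock libraries, a ratio of 187 after scaling (95% exact interval 63.8 to 909, counting error only), with an adjusted p of 0.0084. The ratio was 35.7 (11.8 to 176) without PYR1 CA replicate 3 and 359 (64.3 to 14194) without aba2-1 mock replicate 1. CRU3, another cruciferin, held 18.2, 7.07 and 71.2 in PYR1 CA and was listed at 0 in each aba2-1 mock library, at least 8.88-fold higher by the same floor. It passed the filter on low values only through PYR1 CA, so its adjusted p of 0.0017 is no support for the rise. The seed peroxiredoxin gene PER1 held 10.6, 6.19 and 67.0 and was listed at 0 in aba2-1 mock, at least 7.71-fold higher (adjusted p = 0.010). In these 3 genes PYR1 CA replicate 3 was far above the others of its group, and all PYR1 CA libraries lay above all aba2-1 mock libraries. Without that replicate the bounds were at least 3.49-fold for CRU3 and 2.32-fold for PER1.

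The window before CRU3 is shown for the CATGCA core of the RY element, bound by seed maturation factors of the B3 type and given in capitals.
CRU3 (chr4:14087306-14087555, plus strand): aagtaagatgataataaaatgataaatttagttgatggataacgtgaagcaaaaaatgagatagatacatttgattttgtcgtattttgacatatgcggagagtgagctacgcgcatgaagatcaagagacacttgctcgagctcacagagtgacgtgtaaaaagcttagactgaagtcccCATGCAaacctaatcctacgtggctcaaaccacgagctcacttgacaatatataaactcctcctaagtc
It held the core once on either strand, as did 7.69% of all windows at least once and 14.0% of the 214 windows of genes called higher, where no test of that difference was made.

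The M17 gene, of seed LEA type, held 31.1, 46.9 and 163 in PYR1 CA and 12.5, 0 and 13.6 in aba2-1 mock (log2 difference of 3.44, SE 0.81, adjusted p = 0.041). It lost its call in 4 of 6 fits that left out a library, without any single PYR1 CA library and without aba2-1 mock replicate 2 (highest adjusted p = 0.33). The oleosin gene OLEO2 and the seed aquaporin gene TIP3;1, which is outside the seed list, were at 0 in each aba2-1 mock library. OLEO2 held 7.58, 6.19 and 42.0 in PYR1 CA, at least 5.13-fold higher by the same floor. TIP3;1 held 18.2, 4.42 and 55.4, at least 7.18-fold higher, and replicate 3 was again the highest of both. Without it the bounds were at least 1.90-fold for OLEO2 and 3.12-fold for TIP3;1. These 2 genes were chosen after their values were seen. CRA1, PER1 and TIP3;1 were not called without aba2-1 mock replicate 2, with adjusted p = 0.067, 0.062 and 0.059, and OLEO2 was lost without aba2-1 mock replicate 1 or 2 or PYR1 CA replicate 3, with a highest adjusted p of 0.11. CRU3 and TIP3;1 did not pass the filter on low values without PYR1 CA replicate 1 or 3, so the adjusted p of neither gene is support for a rise. Of the 16 listed seed and embryo genes 14 were in the table and 6 passed that filter, mostly through PYR1 CA itself, so their count and median support nothing. OLEO4, which also passed, averaged 35.3 ± 10.7 in PYR1 CA and 30.7 ± 7.58 in aba2-1 mock (SD, n = 3 each) and was not called. Of the 14 genes, 1 was at 0 in all PYR1 CA libraries and 6 in all aba2-1 mock libraries.

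**Figure D4:**
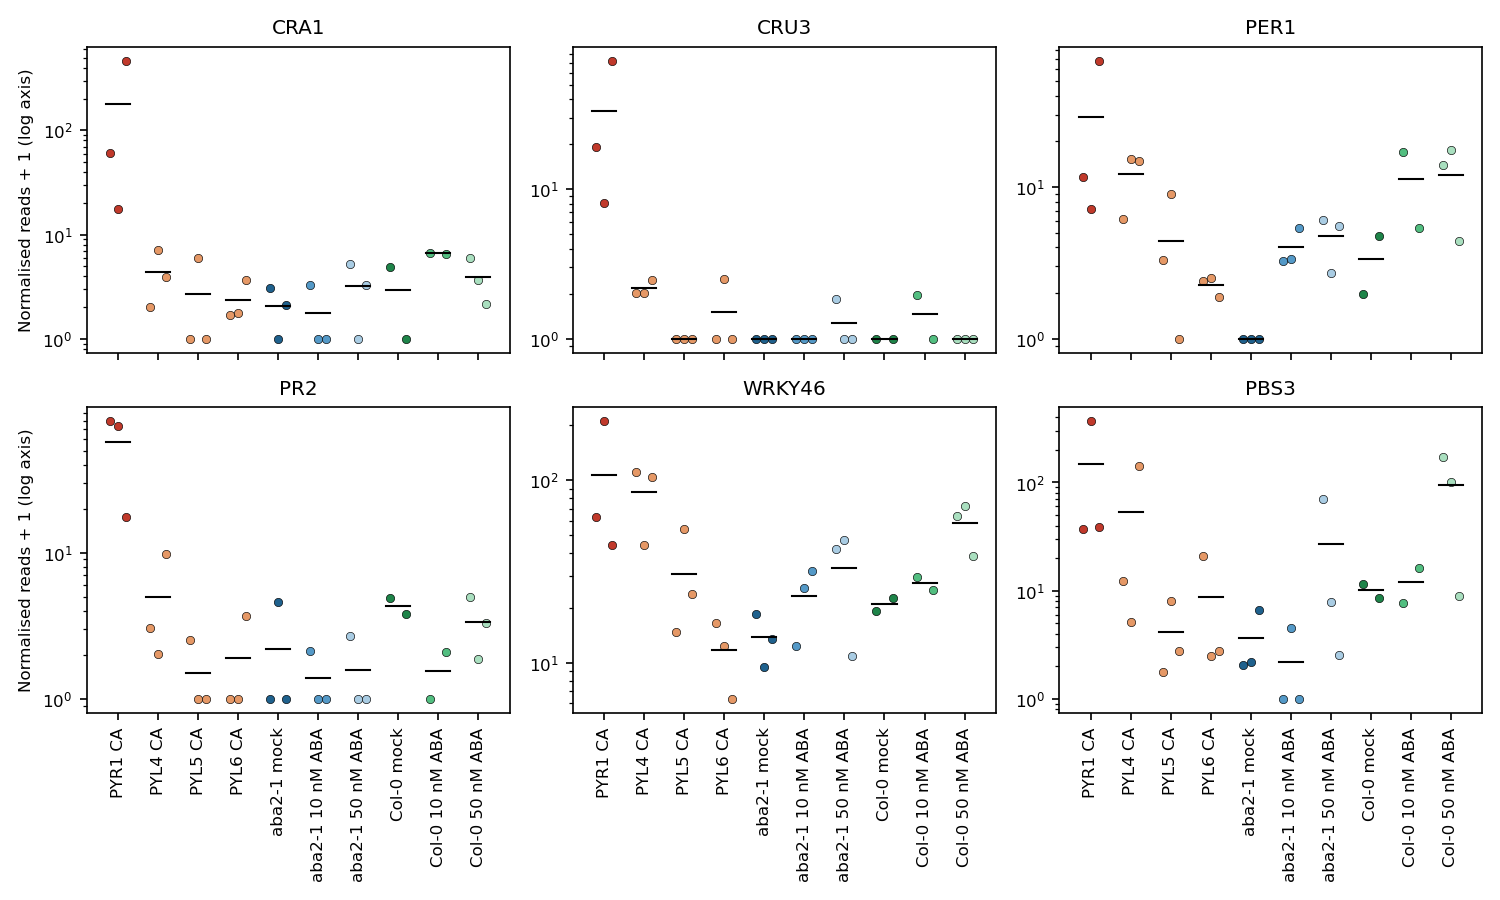
Normalised reads + 1 (y axis, log) of the seed genes CRA1, CRU3 and PER1 and the defence genes PR2, WRKY46 and PBS3 in the 10 groups (x axis), with 1 point per library and a bar at the group mean. PYR1 CA is the highest group for CRA1, CRU3 and PR2, with 1 library above the others of its group in the seed genes, WRKY46 and PBS3.

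The next largest rise by the naming rule was that of a defence gene. PR2 (AT3G57260), a beta-1,3-glucanase of the salicylate response, held 78.9, 72.5 and 16.4 in PYR1 CA and 0, 3.62 and 0 in aba2-1 mock. It had 213 reads over the PYR1 CA libraries and 3 over those of aba2-1 mock, a ratio of 46.4 after scaling (95% exact interval 15.7 to 227, counting error only), with an adjusted p of 0.0048. The ratio was 29.7 (10.0 to 145) without aba2-1 mock replicate 1, and without replicate 2, which held all 3 of those reads, PR2 was at least 16.4-fold higher by the floor of 3 reads per library. No library of the other groups passed 8.79 normalised reads, and the gene was called against all 4 references, though not against Col-0 mock without either of its libraries or without PYR1 CA replicate 1 or 2 (highest adjusted p = 0.33). PR2 thus passed the filter on low values only through PYR1 CA. Neither its adjusted p nor its calls in any comparison are therefore support for the rise. PR2 was the 1 of 14 salicylate and defence genes called by limma and edgeR, beside 1.04% and 1.08% of all genes called higher, 12 were positive and the median was 0.50. DESeq2 called 2 higher (2.68% of all genes), and by unadjusted p under 0.05 5 members were higher (8.21% of all genes) and 0 lower. PR1, the usual salicylate marker, held 13.6, 7.07 and 1.83 in PYR1 CA and 1.04, 2.41 and 0 in aba2-1 mock, and PR5 averaged 148 ± 34.7 in PYR1 CA and 121 ± 26.9 in aba2-1 mock (SD, n = 3 each). Their choice followed the values, and neither was called. PBS3, needed to make salicylate, held 36.4, 369.6 and 37.7 in PYR1 CA and 1.04, 1.21 and 5.67 in aba2-1 mock, with PYR1 CA replicate 2 far above the others, and was called by DESeq2 (adjusted p = 0.010) but not by limma (log2 difference of 4.71, SE 1.34, adjusted p = 0.087) or edgeR (adjusted p = 0.10).

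PYR1 CA replicate 2 was also the highest library for both WRKY transcription factor genes among the rises. WRKY46 held 62.2, 210.4 and 43.2 in PYR1 CA and 17.6, 8.45 and 12.5 in aba2-1 mock (log2 difference of 2.65, SE 0.59, adjusted p = 0.033). WRKY8 held 81.9, 231 and 76.1 in PYR1 CA and 21.8, 8.45 and 43.1 in aba2-1 mock (log2 difference of 2.43, SE 0.55, adjusted p = 0.036). Both calls were lost without PYR1 CA replicate 1 or 2 or aba2-1 mock replicate 1 or 2, and that of WRKY46 also without aba2-1 mock replicate 3, each with a highest adjusted p of 0.30. The remaining rises by the naming rule were AT5G35935, AT4G20000, AT4G23215, AT1G24140 and AT1G66920, with log2 differences between 2.09 and 2.41, and all were lost without replicate 1 or 2 of either group, with a highest adjusted p of 0.41. The TTGAC core that WRKY factors bind lay in 127 of the 214 windows of genes called higher (59.3%), beside 45.4% of all windows, again with no test and with the core on either strand. The window before PR2 held 0 matches.

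Some receptor and ethylene genes, named after their values were seen, rose as well. EFR, the receptor of a bacterial translation factor peptide, held 560.3, 723 and 467 in PYR1 CA and 305, 292 and 383 in aba2-1 mock (log2 difference of 0.82, SE 0.16, adjusted p = 0.012). RPM1, an intracellular resistance protein gene, rose to a mean of 447 ± 75.04 in PYR1 CA, against 272 ± 32.4 in aba2-1 mock (SD, n = 3 each, adjusted p = 0.017). IOS1, a leucine-rich repeat receptor kinase gene, rose with a log2 difference of 1.303, SE 0.27, adjusted p = 0.022. ACS6 and ACS8, which make the ethylene precursor, had log2 differences of 1.15 and 1.17 (adjusted p = 0.028 and 0.041). Each of these 5 calls was lost without PYR1 CA replicate 2 and without aba2-1 mock replicate 2, with highest adjusted p between 0.14 for EFR and 0.36 for ACS8. Of 19 jasmonate and wounding genes 0 were called by limma or edgeR and 4 by DESeq2, all higher, beside 2.68% of all genes. By unadjusted p under 0.05 6 were higher and 1 lower, beside 8.21% and 3.52% of all genes, and the median was 0.43 with 16 positive. The summed levels of the 21 listed genes in the table were 16587, 20929 and 15504 in PYR1 CA and 13780.0, 11911 and 12400.0 in aba2-1 mock, with PYR1 CA replicate 2 the highest.

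Of 12 nitrate transport and assimilation genes limma and edgeR each called 2 and DESeq2 3, all higher, beside 1.04%, 1.08% and 2.68% of all genes, and the median was 0.083. NIR1, the plastid nitrite reductase, held 19420.0, 23855 and 19977 in PYR1 CA and 10912, 7404 and 13369 in aba2-1 mock (log2 difference of 1.03, SE 0.24, adjusted p = 0.041). NRT3.1, the partner protein of high-affinity nitrate transporters, held 2454, 3251 and 2435 in PYR1 CA and 1399, 1475 and 1989 in aba2-1 mock (log2 difference of 0.75, SE 0.15, adjusted p = 0.017). The nitrate reductase genes NIA1 and NIA2 had log2 differences of -0.14 and -0.17 and were not called, and the transporter gene NRT2.1, also not called and named like them after its values were seen, averaged 27.5 ± 4.77 in PYR1 CA and 26.9 ± 14.7 in aba2-1 mock (SD, n = 3 each).

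Another 4 genes outside the lists were named after their values were seen. UPM1, which makes the sirohaem precursor of the NIR1 cofactor, held 10220.0, 11344 and 8402 in PYR1 CA and 6494, 3647 and 5564 in aba2-1 mock (log2 difference of 0.96, SE 0.22, adjusted p = 0.038). The ferredoxin reductase genes RFNR1 and RFNR2, of the root type, had log2 differences of 0.91 and 0.90 (adjusted p = 0.039 and 0.041), and the plastid glucose-6-phosphate dehydrogenase gene G6PD3 of 1.41 (adjusted p = 0.043). For all 5 of NIR1, UPM1, RFNR1, RFNR2 and G6PD3 the lowest aba2-1 mock library was replicate 2. NIR1, RFNR1, RFNR2 and G6PD3 were called in 1 of the 6 fits that left out a library, the 1 without aba2-1 mock replicate 3. UPM1 was lost without aba2-1 mock replicate 2 or PYR1 CA replicate 1 or 2, and NRT3.1 without aba2-1 mock replicate 1 or 2 or PYR1 CA replicate 2, and highest adjusted p for these 6 genes ranged between 0.18 and 0.33.

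The falls were fewer. UMAMIT17, of a family of amino acid exporters, held 155, 153 and 206 in PYR1 CA and 352, 352 and 357 in aba2-1 mock (log2 difference of -1.06, SE 0.19, adjusted p = 0.0087), and Col-0 mock, at 153 and 104, lay at the PYR1 CA level. The expansin gene EXPA14 held 111, 95.5 and 127 in PYR1 CA and 265, 191 and 209.9 in aba2-1 mock (log2 difference of -0.99, SE 0.20, adjusted p = 0.017). SUS4, a sucrose synthase induced by low oxygen, fell (log2 difference of -1.14, SE 0.23, adjusted p = 0.018), with 23.5, 17.7 and 21.9 in PYR1 CA and 45.7, 49.5 and 46.5 in aba2-1 mock. The other 11 tested hypoxia genes were not called by limma, edgeR or DESeq2, 2 were higher by unadjusted p under 0.05, and the median of all 12 was 0.47. AT1G53640 held 6.82, 12.4 and 15.2 in PYR1 CA and 55.0, 48.3 and 45.4 in aba2-1 mock and was the 1 fall, named after its values were seen, that was called after any library was left out (log2 difference of -2.08, SE 0.34, adjusted p = 0.0052).

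AT5G07840 was listed at 0 in every PYR1 CA library and held 47.7, 173 and 176 in aba2-1 mock, at least 49.8-fold lower by the floor of 3 reads per library (adjusted p = 0.018). It was also listed at 0 in every library of PYL4, PYL5 and PYL6 CA and of aba2-1 50 nM ABA, and in 1 of 2 Col-0 mock libraries, where the other held 122. In aba2-1 10 nM ABA it held 171, 158 and 0, with the 0 in replicate 3, the library with the highest rRNA share. MCCA (AT1G03090), a subunit of a mitochondrial carboxylase, held 1056, 1798 and 1664 in PYR1 CA and 3117, 4713 and 3369 in aba2-1 mock (log2 difference of -1.32, SE 0.31, adjusted p = 0.039). Whether the row MCCA-NOS refers to this gene is not stated in the sources used here. The remaining falls by the naming rule were AT5G49770, EMB3135, AT3G54040, AT1G05700, AT2G32870, AT3G42180 and AT5G54040, with log2 differences between -1.63 and -0.79. Apart from AT1G53640 every fall named here lost its call without aba2-1 mock replicate 2. Without PYR1 CA replicate 2 AT3G54040 kept its call and the others lost it, and AT5G07840 was not called by edgeR or DESeq2, with adjusted p = 0.22 and 0.60.

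Lists that mark tissues and growth gave 0 calls against aba2-1 mock by limma and edgeR, and DESeq2 called 2 auxin and growth genes higher and 1 flavonoid gene lower. By unadjusted p under 0.05, 3 guard cell genes, 1 root gene, 3 auxin and growth genes and 3 cytokinin genes were higher, beside 8.21% of all genes. By the same measure 1 photosynthesis gene, 1 clock gene, 2 flavonoid genes and 1 cytokinin gene were lower, beside 3.52% of all genes. Of 26 photosynthesis genes 0 were positive and the median was -0.20. LHCB2.1, a light-harvesting protein gene, averaged 20310.0 ± 838 in PYR1 CA and 28147 ± 1998 in aba2-1 mock (SD, n = 3 each, log2 -0.47, 95% interval -0.85 to -0.085). Of 19 aquaporin genes 3 were positive, with a median of -0.25. Root markers had a median of -0.067 with 10 of 20 positive, guard cell and stomatal genes 0.052 with 11 of 21 positive, cell cycle genes -0.14 with 5 of 20, clock genes -0.17 with 2 of 15, flavonoid genes -0.12 with 5 of 13, auxin and growth genes 0.18 with 14 of 18 and cytokinin response genes 0.20 with 10 of 14. CHS, the entry enzyme of flavonoid synthesis, was closest to a call among these lists other than GH3.5, with 339.7, 363 and 251 in PYR1 CA and 609, 685 and 518 in aba2-1 mock (log2 -0.93, adjusted p = 0.054). GH3.5, which conjugates auxin and salicylate, averaged 3833 ± 249.7 in PYR1 CA and 2739 ± 302 in aba2-1 mock (SD, n = 3 each, log2 0.49, adjusted p = 0.052). DESeq2 called both CHS (adjusted p = 0.011) and GH3.5 (adjusted p = 0.0079).

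**Figure D5:**
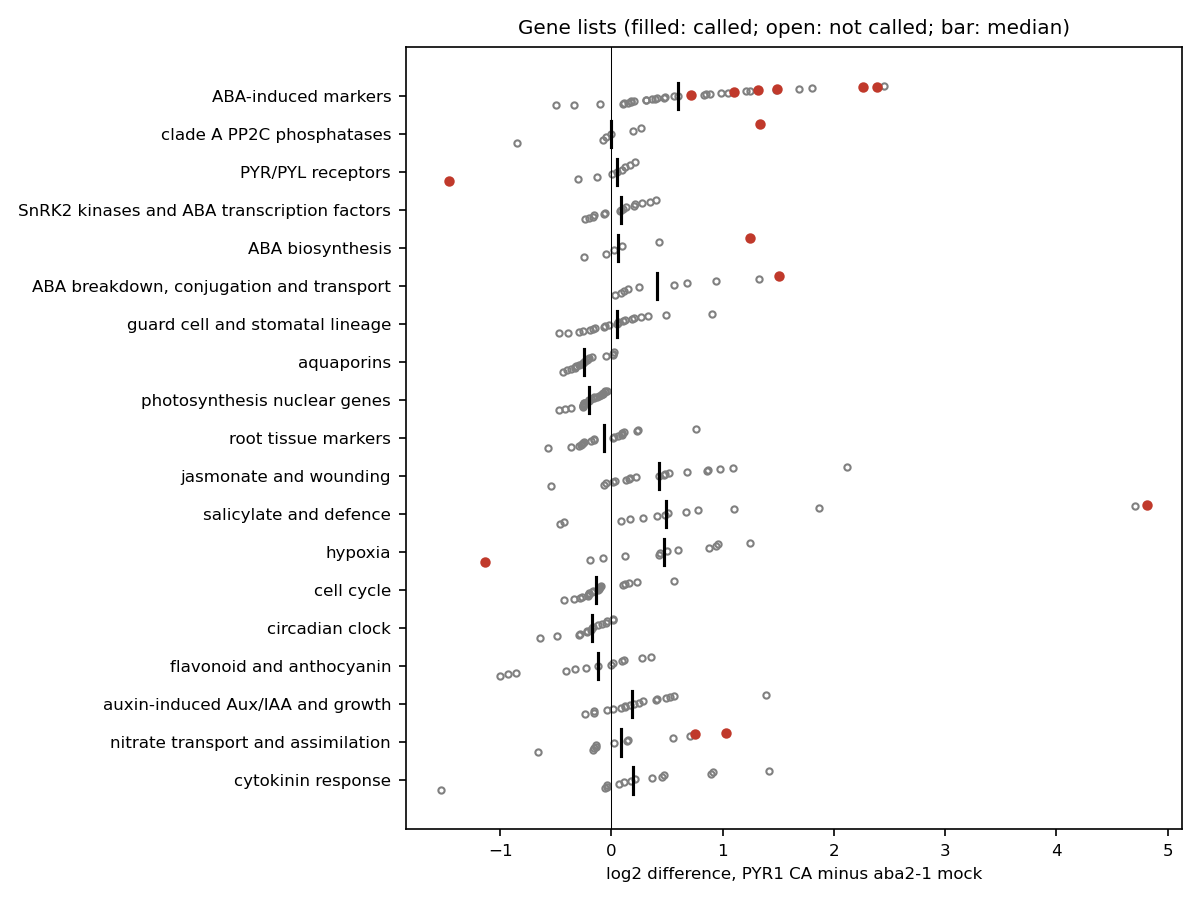
Log2 difference of PYR1 CA minus aba2-1 mock (x axis) of the tested members of 19 gene lists (y axis), with filled red points for called genes, open points for genes not called and a black bar at the median of each list. The seed list is left out because its members passed the filter mostly through PYR1 CA. The ABA-induced list has 6 called points and the nitrate list 2, and no other list has more than 1.

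The remaining references set PYR1 CA against wild type, the hormone-treated mutant and the other CA lines. Against Col-0 mock 443 genes (2.11%) were higher in PYR1 CA and 148 (0.704%) lower. The 5 largest rises were MRD1, CRA1, FAMT, PR2 and HEI10, and the 5 largest falls AT3G55920, AT4G08093, TPS12, AT4G33550 and AT3G53980, among genes that met the naming rule. FAMT, a farnesoic acid methyltransferase gene, held 71.3, 80.5 and 93.7 in PYR1 CA, 124, 175 and 89.6 in aba2-1 mock and 5.80 and 5.66 in Col-0 mock. TPS12, a terpene synthase gene, averaged 11.2 ± 2.62 in PYR1 CA and 18.9 ± 4.19 in aba2-1 mock (SD, n = 3 each), and 98.2 ± 15.9 in Col-0 mock (SD, n = 2). TPS12, HEI10, AT3G55920, AT4G08093, AT4G33550 and AT3G53980 were called after any of the 5 libraries was left out. MRD1 and FAMT were lost without either Col-0 mock library (highest adjusted p = 0.11 and 0.12), CRA1 without Col-0 mock replicate 2 (adjusted p = 0.28). The count against Col-0 mock was 42 without Col-0 mock replicate 2, 102 without Col-0 mock replicate 1 and 145 without PYR1 CA replicate 2, and 1097 with DESeq2. Of the 218 genes higher than in aba2-1 mock, 85 were also higher than in Col-0 mock and 1 was lower.

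Against aba2-1 50 nM ABA 3007 genes (14.3%) were higher and 2890 (13.7%) lower. Among genes that met the naming rule the 5 largest rises were LHT7, PR2, AT2G17740, CRA1 and AT5G55150. LHT7, of the lysine-histidine transporter family, held 129, 319 and 163 in PYR1 CA and 8.53, 3.40 and 3.04 in aba2-1 50 nM ABA (log2 difference of 5.10, SE 0.35, adjusted p = 8.2e-10). All 10 genes named here in this comparison were called after any of the 6 libraries was left out. The count against 50 nM ABA was 3677 without aba2-1 50 nM ABA replicate 2 and 9039 without replicate 3. It was 987 with only the groups compared and 2137 with a spread weighted by group.

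Against the mean of PYL4, PYL5 and PYL6 CA 23 genes (0.109%) were higher in PYR1 CA and 15 (0.0714%) lower. Under the naming rule, which leaves out genes of lower level and genes whose groups overlap, the 5 largest rises were CRA1, PR2, AT5G60760, AT1G74010 and GLIP2 and the 5 largest falls PYR1, CASP5, EMB3135, CYP718 and AT1G67865. AT5G60760 held 262, 343 and 354 in PYR1 CA, between 93.2 and 215 in the other CA lines, 372, 332 and 313 in aba2-1 mock and 102 and 103 in Col-0 mock (log2 difference of 1.16, SE 0.14, adjusted p = 0.00031). GLIP2, a secreted lipase gene, held 129, 214 and 154 in PYR1 CA and between 77.0 and 104 in the other CA lines (log2 difference of 0.89, SE 0.19, adjusted p = 0.048). CASP5, which marks the endodermal Casparian strip, held 12.9, 10.6 and 14.6 in PYR1 CA, between 25.6 and 72.2 in the other CA lines and 21.8, 20.5 and 15.9 in aba2-1 mock (log2 difference of -1.64, SE 0.29, adjusted p = 0.012). CYP718, a cytochrome P450 gene, averaged 18.5 ± 3.16 in PYR1 CA (SD, n = 3) and lay between 31.7 and 67.6 in the other CA lines (log2 difference of -1.14, SE 0.18, adjusted p = 0.0059). PR2, PYR1 and AT5G60760 were called after any of the 12 libraries was left out. The others named here lost their call without at least 1 PYR1 CA library, with a highest adjusted p of 0.12 for EMB3135, 0.23 for CASP5, 0.072 for CYP718, 0.071 for CRA1, 0.27 for AT1G67865, 0.91 for AT1G74010 and 0.94 for GLIP2. GLIP2 was lost whichever of the 12 was left out, and AT1G74010 in 9 of 12 cases, among them each of the 3 without a PYR1 CA library. CRA1 was lost without PYR1 CA replicate 3, EMB3135 without replicate 2, CYP718 without replicate 2 or 3, and CASP5 and AT1G67865 without any 1 of the 3. CASP5 and CYP718 in PYR1 CA were not called against aba2-1 mock, with log2 differences of -0.57 and -0.13. The count of 38 became 83 with edgeR and 203 with DESeq2, and fell to 13, 10 and 16 without PYR1 CA replicate 1, 2 and 3, to 25 without PYL4 CA replicate 2 and to 25 and 22 without PYL6 CA replicate 1 and 3.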

How the data were processed

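RNA of whole seedlings was extracted with a plant column kit and DNase, made into stranded libraries and sequenced on a NextSeq 500, per the labels' protocols. The submitters' processing notes name TAIR10, Trimmomatic 0.38, Salmon 1.3.0 and edgeR 3.28.0, with no role or order. The deposited signal values are reads divided by 1 size factor per sample: 100.0% of values were whole multiples of 1 read within 0.01 read, and the authors' normalisation is otherwise not given in the sources used here. Of 23686 rows, 23681 carried a locus and 5 did not. Total reads differed between libraries by more than a factor of 2. A single read stood for 0.609 normalised reads in PYR1 CA replicate 3, the lowest, and for 4.41 in aba2-1 10 nM ABA replicate 3, the highest. Depth limits low genes most.

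Genes with at least 10 normalised reads in at least 2 samples (21023) were tested with limma 3.58.1 (R 4.3.3, trend and robust options) as log2(value + 1), in 1 fit of all 28 samples with a mean for each group and Benjamini-Hochberg adjustment at 0.05. Fold changes on this scale understate those of low genes. On simulated data 30% of 1.5-fold, 86% of 2-fold and 100% of 4-fold changes were recovered (50 genes each), with 14 false calls among 20868 genes. The changed genes averaged at least 50 normalised reads, and each gene had 1 dispersion for all groups. These rates therefore do not cover genes of lower level or groups of unequal spread, as the real groups are. edgeR 4.0.16 and DESeq2 1.42.0 on the recovered reads were alternatives. Intervals of log2 differences used 18 residual degrees of freedom. Count intervals and floors cover counting error only. No pair of libraries within PYR1 CA or aba2-1 mock agreed within sampling noise (chi-square per degree of freedom 12.2 to 41.6).

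Named genes were the 12 largest called rises and falls with a mean of at least 50 normalised reads in the higher group and groups that did not overlap, the 3 list members with the smallest p, the 5 largest rises and falls of each other comparison, and the receptor rows. Genes outside this rule are marked as chosen after their values were seen. The comparison, the members and the lists were chosen with earlier results of these data known. Promoter sequences come from RefSeq on TAIR10.1, and 23457 loci were matched to it.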

Additional observations from a re-analysis of the deposited data

Results flagged for a closer look

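The row MCCA-NOS, which has no locus and enters no comparison, averaged 15950 ± 3135 normalised reads in PYR1 CA (SD, n = 3) and was listed at 0 in each aba2-1 mock library.

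The difference from aba2-1 mock was itself different between PYR1 CA and the mean of PYL4, PYL5 and PYL6 CA for 38 genes by limma, 23 higher and 15 lower in PYR1 CA, which is 0.181% of the genes tested.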

How the results depend on the processing

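The counts of called genes depended on the test and on the samples that set the spread. Against aba2-1 mock (242) DESeq2 gave 657, the 6 libraries alone 106, the fit without aba2-1 50 nM ABA and PYL5 CA 1302 and a spread weighted by group 1473. Against Col-0 mock (591) the same settings gave 1097, 1568, 2151 and 3693. Against aba2-1 50 nM ABA (5897) the groups compared alone gave 987 and the weighted spread 2137. Against the mean of the other CA lines (38) edgeR gave 83, DESeq2 203, the groups compared alone 12 and the weighted spread 125. Leaving out 1 library gave 18 to 287 against aba2-1 mock, 42 to 536 against Col-0 mock, 3677 to 9039 against aba2-1 50 nM ABA and 10 to 45 against the other CA lines. The causes of these shifts were not tested.

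Same-numbered PYR1 CA and aba2-1 mock libraries did not deviate together (correlations -0.0985, -0.214 and -0.264, beside 0.00377 to 0.258 for other pairs). Deviations within a group of 3 sum to 0, so these correlations depend on each other and do not settle whether the numbers mark a shared batch. No label says that they do. With a replicate block the counts were 194, 682, 5711 and 29. The pseudocount, the filter, TMM scaling, edgeR except against the other CA lines, and an alternative added after seeing the data, without aba2-1 10 nM ABA replicate 3, kept every count within 1.5 times. Over all named genes and settings 2185 values kept their side of the threshold, 278 lost it and 52 gained it. Of values called in the main fit or in the alternative, 0 changed direction. Changes of direction among values called in neither were counted as kept. Depth limits genes with few reads in aba2-1 mock: CRU3, PER1, OLEO2, TIP3;1 and AT5G24080 had 0 and CRA1 and PR2 had 3 over its 3 libraries.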
